A study of Mus musculus with 6 samples.

Results

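The microRNA (miRNA) profile of the unperturbed mouse bladder was taken from the 3 Control libraries of a small RNA series of 6 libraries, with all 1277 mature miRNA names that the deposited count table lists. The libraries were taken by their label, with earlier results of these data known, and no other library was read for this profile. In the labels, the Control animals are described in 1 place as naive and in another as given saline by intraperitoneal injection at 8 weeks of age, and they carry no other treatment. The material is named as isolated bladder cells, and each library was made from 100 ng of total RNA. Strain and sex are not stated in the labels, which also do not say whether the 3 libraries came from separate animals, so the spread between them may be technical.

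A miRNA is cut from a hairpin transcript as a short duplex, and an Argonaute protein keeps one strand of the duplex as the guide. The strand from the 5′ side of the hairpin is named 5p and the strand from the 3′ side 3p. The bases just behind the 5′ end of the guide, the seed, pair with target messenger RNAs and repress them, so miRNAs that share a seed form a family with overlapping targets. The bladder wall is built of a smooth muscle coat (the detrusor), connective tissue, vessels, nerves and an epithelial lining (the urothelium), and several miRNAs are known for their restriction to single tissues of this kind.

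The 3 libraries held 14900120 to 19442420 reads, of which 66.4% to 69.0% were assigned to miRNAs. After reads were collapsed by unique molecular identifier (UMI, a random tag that marks a single cDNA molecule), they held 11029185, 9110719 and 12180739 miRNA UMIs. Levels are given as a share of these totals, in percent or in CPM, where 10000 CPM is a share of 1%. Of the 1277 names, 824 had at least 1 UMI in every library, 402 in some of them and 51 in none. No name missing from a library averaged more than 1.16 CPM. Control 1 stood apart in the other RNA classes: transfer RNA took 12.9% of its reads against 6.89% in Control 2 and 4.64% in Control 3, and ribosomal RNA took 0.106% against 0.237% and 0.297%. Reads classed as too short took 6.74% against 11.7% and 11.4%, and reads that could not be mapped took 2.12% against 1.56% and 1.21%. The libraries were not copies of each other, since the chi-square of their miRNA counts was 33.3 to 48.6 per degree of freedom, far above sampling noise.

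Seed groups were formed from the 1097 names with a RefSeq sequence, which held 64.0% to 66.3% of the UMIs of a library and do not include miR-143-3p, miR-1a-3p or miR-145a-5p. Among them the largest group was let-7, which keeps differentiated cells from returning to a fetal programme. Its abundant members are printed here because they share the seed, in capitals, and differ at few of the remaining positions, so that reads of different members are easily confused. All sequences are RefSeq mature sequences of the GRCm38.p6 build, written 5′ to 3′.
let-7c-5p: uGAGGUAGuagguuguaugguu
let-7f-5p: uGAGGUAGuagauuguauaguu
let-7a-5p: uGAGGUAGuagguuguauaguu
let-7b-5p: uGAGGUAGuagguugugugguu
let-7i-5p: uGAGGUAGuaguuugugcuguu
let-7d-5p: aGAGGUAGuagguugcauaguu
let-7g-5p: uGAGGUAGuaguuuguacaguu
let-7e-5p: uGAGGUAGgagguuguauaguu
miR-98-5p: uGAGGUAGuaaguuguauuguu

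The 11 names with the let-7 seed GAGGUAG (bases 2 to 8) held 14.8%, 14.5% and 14.9% of the miRNA UMIs of Controls 1, 2 and 3, a mean of 14.7% ± 0.193 (SD, n = 3). No member dominated. let-7c-5p made up 25.4% of the family, let-7f-5p 20.1%, let-7a-5p 19.9%, let-7b-5p 15.4% and let-7i-5p 8.31%. let-7d-5p, let-7g-5p and let-7e-5p each gave between 3.16% and 4.28% of the family, and miR-98-5p gave 0.196%. Counted from 1 at the 5′ end, let-7a-5p differs from let-7c-5p by G19A alone and let-7b-5p by A17G alone, while let-7f-5p carries G12A and G19A. The labels do not say how reads with a sequencing error at such a base were assigned, so the split between these members is less certain than the family total. let-7c-5p was among the steadiest of the abundant miRNAs, with 3.77%, 3.69% and 3.77% of the UMIs and a coefficient of variation (CV, the SD between libraries over the mean) of 1.17%.

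The next groups in abundance among the names with a sequence are shown by their leading members, again with the seed in capitals, because a single seed or a pair of near-identical names carried most of each.
miR-125b-5p: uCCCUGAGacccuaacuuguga
miR-125a-5p: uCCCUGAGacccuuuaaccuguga
miR-26a-5p: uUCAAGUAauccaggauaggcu
miR-26b-5p: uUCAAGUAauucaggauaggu
miR-29a-3p: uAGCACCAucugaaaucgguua
miR-29c-3p: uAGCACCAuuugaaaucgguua
miR-29b-3p: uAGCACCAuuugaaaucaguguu
miR-16-5p: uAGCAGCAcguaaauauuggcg
miR-195a-5p: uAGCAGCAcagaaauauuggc
miR-21a-5p: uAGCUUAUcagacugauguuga
miR-126a-3p: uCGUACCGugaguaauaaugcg
miR-30a-5p: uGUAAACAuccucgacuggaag
miR-199a-3p/miR-199b-3p: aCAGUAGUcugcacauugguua
miR-200a-3p: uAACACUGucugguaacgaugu
miR-141-3p: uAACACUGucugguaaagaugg
miR-27b-3p: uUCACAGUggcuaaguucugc
miR-205-5p: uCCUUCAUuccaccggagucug

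The seed CCCUGAG, that of the mammalian relatives of the worm miRNA lin-4, held 9.42%, 8.42% and 8.86% of the UMIs (mean 8.90% ± 0.501, SD, n = 3). miR-125b-5p gave 77.1% of that family and miR-125a-5p 22.7%. The miR-26 seed UCAAGUA, whose genes lie inside the Ctdsp phosphatase genes, held 5.67% ± 0.278, split 68.1% to 31.9% between miR-26a-5p and miR-26b-5p. The miR-29 seed AGCACCA, known for repressing collagen messages, held 3.96% ± 0.123, with 69.8% of it in miR-29a-3p, 16.8% in miR-29c-3p and 13.4% in miR-29b-3p. The seed AGCAGCA of miR-16 and its relatives, which restrain the cell cycle, held 3.62% ± 0.0779, and miR-16-5p accounted for 83.9% of it. The remaining members of that seed included miR-195a-5p at 2778 CPM, miR-497a-5p at 1090 CPM, miR-322-5p at 906 CPM, miR-15a-5p at 665 CPM and miR-15b-5p at 399.5 CPM.

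Some of the smaller groups were carried by 1 name and others were shared. miR-21a-5p, which is induced in inflamed and fibrotic tissue, made up 99.96% of its seed group at 2.57% ± 0.102 of the UMIs. miR-126a-3p of endothelial cells and miR-205-5p of stratified and transitional epithelia were each the sole name with their seed, at 2.09% ± 0.143 and 1.36% ± 0.0621. The seed AACACUG combined miR-200a-3p (70.2%) and miR-141-3p, which keep cells epithelial by repressing Zeb1 and Zeb2, and held 1.76% ± 0.0362. The seed GUAAACA, counted over miR-30a-5p, miR-30e-5p, miR-30c-5p and miR-384-5p, held 1.97% ± 0.0994, with 59.7% of it in miR-30a-5p. That sum does not hold miR-30d-5p, at 0.898%, or miR-30b-5p. The miR-27 seed held 1.61% ± 0.0449, with 81.4% of it in miR-27b-3p. The first 12 seed groups together held 50.1% of the UMIs. Of the 943 seed groups, 839 had a single member.

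A single miRNA stood far above all others. miR-143-3p, an miRNA of contractile smooth muscle, took 24.4%, 25.5% and 23.0% of the miRNA UMIs of Controls 1, 2 and 3, a mean of 24.3% ± 1.23 (SD, n = 3). miR-125b-5p was second in every library with 7.23%, 6.54% and 6.80%. miR-26a-5p held rank 3 in every library with 3.78%, 3.71% and 4.10%, and let-7c-5p held rank 4. The level of miR-143-3p did not overlap with that of any other miRNA in any library, whereas from rank 5 on the places changed between libraries. miR-1a-3p (3.17%, 3.31% and 3.04%), which is placed in the striated muscle list below, held rank 5 in Controls 1 and 2 and rank 6 in Control 3. miR-16-5p (2.98%, 3.03% and 3.10%) took the other place.

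The 10 most abundant miRNAs were the same in all 3 libraries. They held 56.8%, 56.9% and 55.5% of the UMIs (mean 56.4% ± 0.754). Beside the 6 above they were let-7f-5p at 2.96% ± 0.0505, let-7a-5p at 2.93% ± 0.0812, miR-145a-5p at 2.81% ± 0.132 and miR-29a-3p at 2.76% ± 0.0702. let-7f-5p and let-7a-5p exchanged places between libraries, as did miR-145a-5p and miR-29a-3p, so these neighbours did not differ beyond their spread. The second 10 ran from miR-21a-5p through let-7b-5p, miR-126a-3p, miR-125a-5p, the joint name miR-199a-3p/miR-199b-3p, miR-26b-5p, miR-205-5p, miR-27b-3p and miR-200a-3p to let-7i-5p at 1.22% ± 0.0430. Of the 20 top names of each library, 18 were common to all 3.

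**Figure D1:**
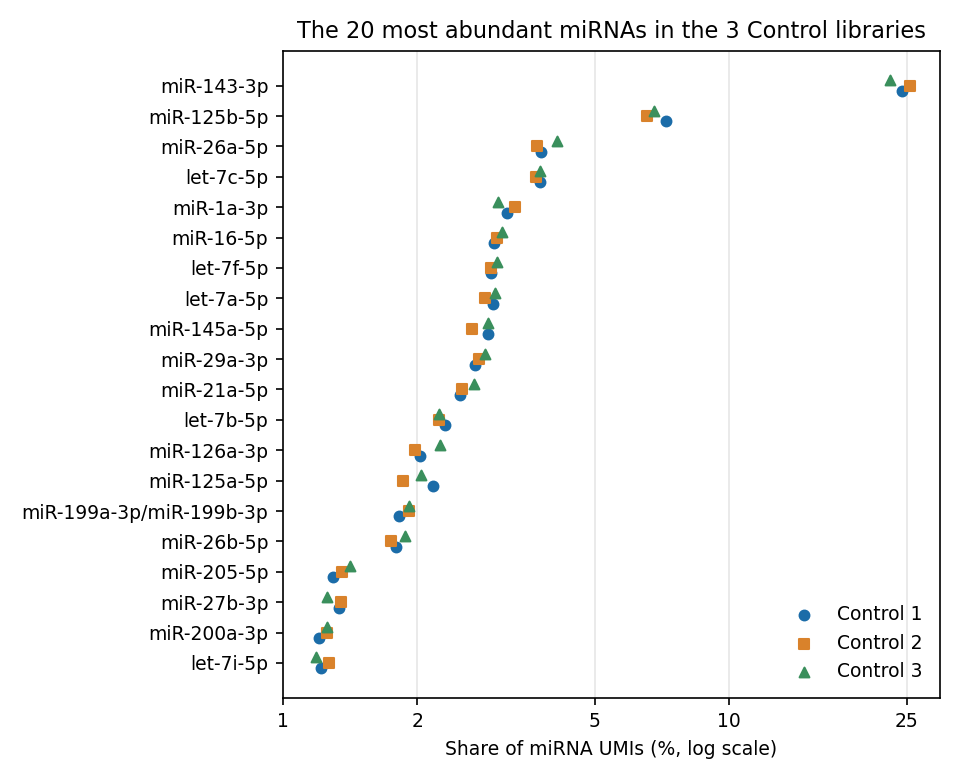
Share of miRNA UMIs (percent, log axis) of the 20 most abundant miRNAs, 1 point for each of Controls 1, 2 and 3. miR-143-3p lies between 23.0% and 25.5%, miR-125b-5p between 6.54% and 7.23%, and all others at or below 4.10%, where the points of neighbouring ranks often overlap.

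Below the top the profile was long and thin. It took 8, 8 and 9 miRNAs to reach 50% of the UMIs of Controls 1, 2 and 3, 46, 46 and 47 to reach 90%, and 155, 161 and 164 to reach 99%. In each library 22 miRNAs exceeded 10000 CPM, 72 or 73 exceeded 1000 CPM, 166 to 170 exceeded 100 CPM and 354 to 373 exceeded 10 CPM. The evenness of the profile, expressed as the number of equally abundant miRNAs that would give the same Shannon entropy, was 36.4, 36.0 and 38.6. Control 3, with the lowest share of miR-143-3p, was the most even. Averaged over the libraries, 493 names lay under 1 CPM, close to the 0.246 to 0.329 CPM that 3 UMIs are worth at this depth.

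**Figure D2:**
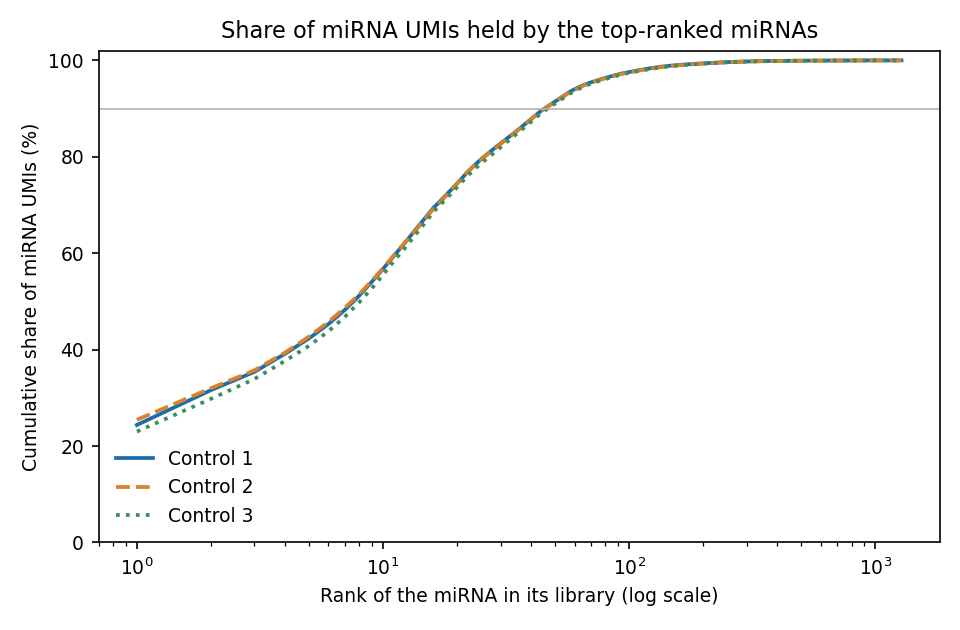
Cumulative share of miRNA UMIs (percent) against the rank of the miRNA in its own library (log axis), 1 line for each Control library. The lines start at 23.0% to 25.5%, cross the grey line at 90% at rank 46 or 47, and the line of Control 3 runs lowest over the first ranks.

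Collapsing reads by UMI changed the top name most, and the reason was not tested. miR-143-3p had 1.25, 1.21 and 1.27 reads per UMI in Controls 1, 2 and 3. The next highest value among the 168 miRNAs at ranks 2 to 169 was 1.09, for miR-125b-5p, and their median was 1.03. Counted in reads, miR-143-3p took 27.6% of the libraries in place of 24.3%. The same libraries in reads gave 6.81% for miR-125b-5p and 3.61% for let-7c-5p, each slightly below the share in UMIs.

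The genes of miR-143 and miR-145a lie 1 behind the other on the minus strand of chromosome 18 (GENCODE M21, mm10), Mir145a at 61647825 to 61647894 and Mir143 at 61649196 to 61649258, outside any other annotated gene. Both are hallmarks of smooth muscle, where they are switched on together by serum response factor and myocardin. Their 4 mature names held 27.8%, 28.6% and 26.4% of the UMIs (mean 27.6% ± 1.10, SD, n = 3). The hairpins were unequal in output, with 245634 CPM ± 12198 from Mir143 and 30272 CPM ± 1441 from Mir145a. They also varied apart: Control 2 was highest of the 3 for Mir143 and lowest for Mir145a.

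No other group of neighbouring hairpins came near this output. Hairpins on 1 strand within 10 kb of each other were taken as a cluster, and a mature name with copies in several clusters was left out (38 names, 32.2% to 33.2% of the UMIs). The cluster Mir99b, Mirlet7e and Mir125a in an intron and an exon of Spaca6 on chromosome 17 (17830188 to 17830879) held 2.78% ± 0.175. Within that short stretch, Mir125a gave 20256 CPM, Mirlet7e 4676 CPM and Mir99b 2893 CPM. The pair Mir29a and Mir29b-1 on chromosome 6 (31062660 to 31063093) held 2.77% ± 0.0704. That total leaves out miR-29b-3p, at 5319 CPM, which also has a copy on chromosome 1. The pair Mirlet7c-2 and Mirlet7b in an exon of the noncoding gene Lncppara on chromosome 15 (85706603 to 85707403) held 2.29% ± 0.0427, and only let-7b could be counted there.

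The epithelial cluster Mir429, Mir200a and Mir200b on chromosome 4 (156053905 to 156055750), within an intron of Ttll10, held 1.88% ± 0.0420. Mir200a gave 12429 CPM, Mir200b 3498 CPM and Mir429 2867 CPM, so the members of 1 transcript differed severalfold in mature product. The clusters of miR-23, miR-27 and miR-24 came as a pair of paralogues. Their totals leave out miR-24-3p, at 12221 CPM, which has a copy in each. Mir23b, Mir27b and Mir24-1 on chromosome 13 (63300484 to 63301275) held 1.96% ± 0.0425, with 6448 CPM from Mir23b and 13130 CPM from Mir27b. Mir23a, Mir27a and Mir24-2 on chromosome 8 (84208518 to 84208921) held 1.22% ± 0.0508. The order of miR-23 and miR-27 was turned round there, at 9171 CPM from Mir23a and 3023 CPM from Mir27a. The pair Mir30b and Mir30d on chromosome 15 (68337415 to 68341289) held 0.964% ± 0.0274, of which Mir30b gave 633 CPM and Mir30d 9005 CPM. Among the 20 top miRNAs, miR-21a lies in an exon of Vmp1, miR-126a in an exon of the endothelial gene Egfl7, miR-26b in an intron of Ctdsp1 and miR-205 in an exon of the noncoding gene 4631405K08Rik.

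Lists of tissue-restricted miRNAs gave the order smooth muscle, stroma, epithelium, striated muscle, endothelium and blood cells. Many listed names, such as those of miR-29, are also made by other cells, so a list total is not a cell share. The smooth muscle list was the miR-143 and miR-145a hairpins above, at 27.6%. The 10 stromal fibroblast names held 6.94%, 7.02% and 7.27% of the UMIs (mean 7.08% ± 0.170, SD, n = 3). They were led by miR-29a-3p and miR-199a-3p/miR-199b-3p, and also held miR-10b-5p at 4543 CPM and miR-152-3p at 4382 CPM. The 12 urothelial and other epithelial names held 5.23%, 5.501% and 5.51% (mean 5.41% ± 0.158). miR-205-5p at 13553 CPM ± 621 and miR-200a-3p at 12379 CPM ± 266 led this list, followed by miR-203-3p, a marker of differentiating surface epithelium, at 6148 CPM and miR-31-5p at 5305 CPM. Of the 12, 11 exceeded 100 CPM. The exception was miR-375-3p, a miRNA of islet, neuroendocrine and secretory cells, at 1.63, 3.51 and 1.23 CPM.

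In bulk libraries such as these, a low share from few cells and a low level in many cells cannot be told apart. The striated muscle list held 4.06%, 4.11% and 3.89% of the UMIs, but its members were far from even. miR-1a-3p gave 31729 CPM ± 1381 and miR-133a-3p 8104 CPM ± 414, both of which heart and skeletal muscle share. miR-206-3p, which is restricted to skeletal muscle, gave 23.4, 17.7 and 41.9 CPM. miR-133b-3p, which skeletal muscle encodes beside miR-206, gave 274, 247 and 255 CPM. The miRNAs encoded in myosin genes were low, with miR-499-5p at 9.18 CPM, miR-208b-3p at 2.96 CPM and miR-208a-3p at 1.88 CPM. The list total therefore came almost entirely from miR-1a-3p and miR-133a-3p. It cannot be read as an amount of striated muscle, and its source was not tested.

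The endothelial list, which is the miR-126a and miR-126b hairpins, held 2.58%, 2.49% and 2.85% of the UMIs. Leukocyte miRNAs were present at a lower level. The 5 lymphoid names held 0.340% ± 0.0152, led by miR-342-3p at 1254 CPM and miR-181a-5p at 773 CPM, and miR-155-5p of activated lymphocytes and macrophages was at 197 CPM. The 6 myeloid names held 0.258%, 0.311% and 0.317%, led by miR-142a-3p at 1502 CPM and the granulocyte and monocyte miRNA miR-223-3p at 1224 CPM. miR-142a-3p was lowest in Control 1 (1250 CPM against 1654 and 1601). The erythroid names held 0.241% ± 0.0201, nearly all of it from miR-486b-5p at 1895 CPM and miR-486a-5p at 378 CPM. The red cell miRNA miR-451a was at 70.2, 58.8 and 76.8 CPM, miR-144-3p at 40.7 CPM and miR-144-5p at 22.7 CPM. The list total therefore follows the miR-486 names and cannot be read as an amount of red cells. Its source was not tested. The split between miR-486a-5p and miR-486b-5p is uncertain because the names are near-identical copies.

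Nerve and foreign tissue miRNAs came last. The 10 neuronal names held 0.206% ± 0.00815, but the neuron-defining miR-124-3p was at 1.18, 1.87 and 2.13 CPM. miR-218-5p at 797 CPM and miR-9-5p at 447.7 CPM gave most of that total, followed by miR-128-3p at 323 CPM and miR-7a-5p at 310.4 CPM. The liver and kidney list summed to 572 CPM, nearly all from miR-194-5p and miR-192-5p, which are also intestinal, while the hepatocyte miRNA miR-122-5p was at 5.71, 6.91 and 5.01 CPM. The testis list summed to 121 CPM, led by miR-34c-5p at 84.9 CPM, and the pancreas list to 15.5 CPM. Of the 8 pluripotent cell names, 3 were listed, of which miR-302d-3p was the most abundant, with 1.09, 14.4 and 5.91 CPM.

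**Figure D3:**
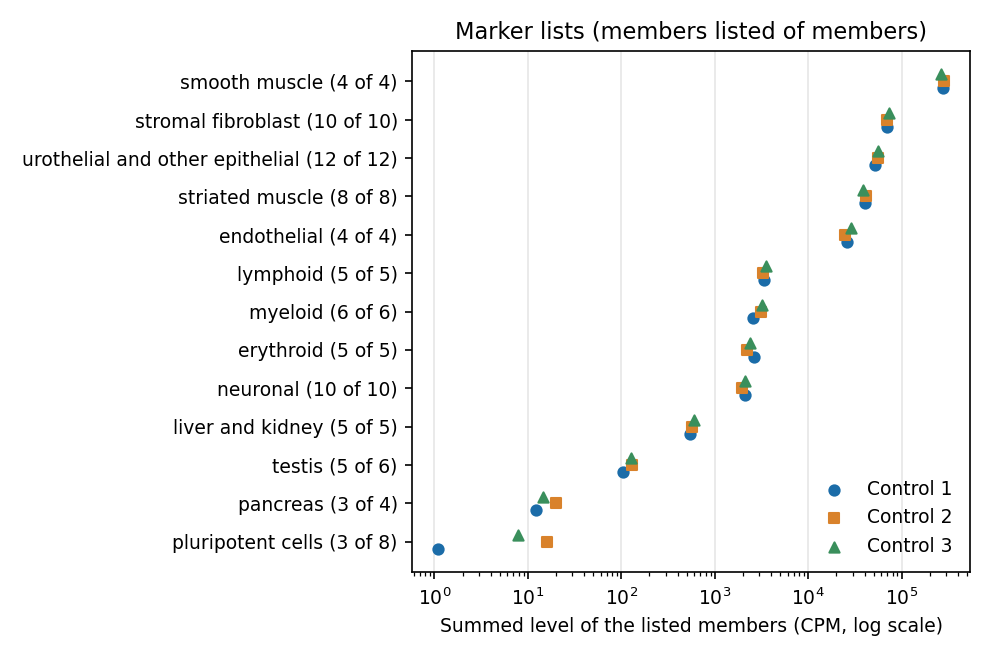
Summed level (CPM, log axis) of each list of tissue-restricted miRNAs, 1 point for each Control library, with the number of members found in the table of the number in the list. The lists run from about 27.6% of all UMIs for smooth muscle to 8.34 CPM for pluripotent cells, and the 3 libraries lie close together for every list but the last ones, where Control 1 lies lowest.

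Each hairpin can yield both strands, and in most cases 1 of them dominated. Both arms were compared in 267 precursors with at least 100 UMIs over both arms and the 3 libraries. The 5p arm led in 140 (52.4%) and the 3p arm in 127. By molecules the totals were close, with 49.98% ± 1.01 of the UMIs on 5p names and 49.6% ± 1.02 on 3p names. A single 3p name, miR-143-3p, held 24.3% of the UMIs, so this balance does not describe the other names. The minor arm made up under 1% of the precursor in 78 cases, 1% to 10% in 88, 10% to 25% in 58 and at least 25% in 43. The median minor share was 4.15%. A further 253 precursor names were listed with a single arm, and 203 had no arm in their name.

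Among the 15 most abundant precursors the dominance was near complete for most. The 5p share was 99.9% for miR-26a, miR-26b and let-7f, 99.8% for miR-16, miR-21a and miR-125a, 99.6% for let-7a joined with let-7c, 99.5% for miR-125b and 99.1% for let-7b. It was 0.135% for miR-1a and 0.0991% for miR-29a. The smooth muscle pair was split the opposite way in its hairpins, with the 3p arm leading in miR-143 (5p share 1.20%, 1.08% and 1.30%) and the 5p arm in miR-145a (92.8%, 92.7% and 92.5%). The exceptions were miR-126a, with a 5p share of 20.7%, 20.01% and 20.5%, and miR-199a with miR-199b, at 15.02%, 14.2% and 15.4%. Their minor arms were abundant miRNAs in their own right: miR-126a-5p stood at 5346 CPM ± 426 and miR-199a-5p at 2786 CPM ± 116.

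**Figure D4:**
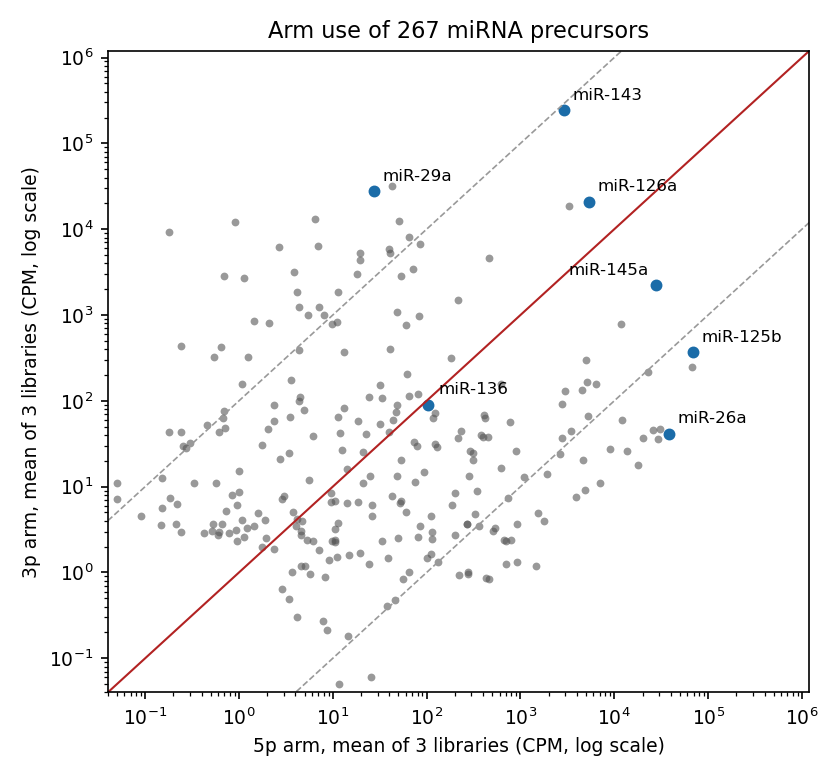
Mean level of the 5p arm against that of the 3p arm (CPM, both axes log) for 267 precursors, 1 point each. The red line marks equal arms and the dashed lines a ratio of 100, values under 0.05 CPM are drawn at 0.05, and miR-136 lies on the red line while miR-29a, miR-26a and miR-125b lie beyond the dashed lines.

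Arm use varied little between the libraries in most precursors. A share near either end of the scale has little room to vary, and 78 of the 267 precursors had a minor arm under 1%. The median SD of the 5p share between libraries was 0.833 percentage points over all 267 precursors and 0.122 over the 143 of at least 100 CPM. The same arm led in all 3 libraries in 257 precursors. Of the 218 precursors of at least 10 CPM, 6 had a different leading arm in different libraries: miR-136, miR-362, miR-501, miR-664, miR-668 and miR-5627. In miR-362 (5p share 46.5%, 50.6% and 47.8%) and miR-664 (50.5%, 47.2% and 44.3%) the libraries lay on either side of equality by a few points. In the other cases of large movement Control 1 was the one apart, with a 5p share of 48.6% against 68.6% and 71.1% for miR-501, 57.0% against 30.8% and 40.4% for miR-5627, and 38.6% against 56.3% and 59.1% for miR-668.

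The first base of the mature strand, which Argonaute holds in a pocket that favours U, differed between leading and minor arms. Both arms had a RefSeq sequence in 203 of the 247 precursors with 1 name per arm. The leading arm began with U in 52.7% of them and the minor arm in 19.7%. In 88 precursors only the leading arm began with U, in 21 only the minor arm, in 19 both and in 75 neither. Where the minor arm made up under 1%, the leading arm began with U in 73.6% of 53 precursors. Where it made up at least 25%, the leading arm began with U in 33.3% of 36 precursors and the minor arm in 19.4%. The same base also followed abundance across all names with a sequence: U came first in 80.5% of those at ranks 1 to 50, 46.5% at ranks 51 to 200, 33.2% at ranks 201 to 500 and 37.0% below.

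Among precursors of at least 100 CPM, miR-136 was nearest to equal arms. It is printed with the hairpin on the opposite strand of the same place, miR-3071. Their products are complementary, and the 5p counts of miR-3071 set Control 1 apart. The seed is in capitals.
miR-136-5p: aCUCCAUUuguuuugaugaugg
miR-136-3p: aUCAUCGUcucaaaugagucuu
miR-3071-5p: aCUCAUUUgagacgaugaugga
miR-3071-3p: aUCAUCAAaacaaauggagucc

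miR-136 gave 183, 188 and 213 CPM over both arms, with a 5p share of 54.8%, 49.97% and 55.4%. Mir136 lies on chromosome 12 at 109595327 to 109595388, and Mir3071 at 109595318 to 109595397 on the other strand. miR-3071-5p is complementary to miR-136-3p over a run of 19 bases and miR-3071-3p to miR-136-5p over 20. Counted over both arms, miR-3071 gave 26.9, 82.9 and 68.9 CPM. The low sum in Control 1 came from the 5p arm, with 230, 682 and 761 UMIs in Controls 1, 2 and 3. The 3p arm had 67, 73 and 78 UMIs. Over both arms, miR-136 differed little between the libraries.

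Several other hairpins that overlap on opposite strands were one-sided. Mir126a gave 26210 CPM and Mir126b on its other strand 202 CPM. Mir30e stood at 5235 CPM and Mir30f at 6.97 CPM. miR-338 gave 426 CPM against 12.8 CPM for miR-3065, and miR-337 gave 61.1 CPM against 1.59 CPM for miR-3544. miR-299a, at 108 CPM, and miR-299b, at 28.1 CPM, were closer, and at low levels Mir5615-1 and Mir5615-2 were listed with the same counts, since they share their mature names, and Mir873a gave 2.70 CPM against 0.849 CPM for Mir873b. The labels do not say whether strand was used in the authors' counting, so reads from the 2 strands of such a place may not be separate.

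Of the 12 precursors nearest to equal arms among those of at least 100 CPM, 5 lie in 1 stretch of chromosome 12. It is the imprinted region from Meg3 to Mirg (109541001 to 109749460), where maternal noncoding transcripts carry a large array of miRNA hairpins. The region was singled out after its values were seen. Its 94 names held 0.532%, 0.570% and 0.583% of the UMIs, and 93 of them had at least 1 UMI. The leading names were miR-127-3p, which lies antisense to the retrotransposon-derived gene Rtl1, at 1029, 1097 and 1090 CPM, miR-379-5p at 739 CPM, miR-411-5p at 529.5 CPM and miR-434-3p at 318 CPM. Over all precursors of at least 100 UMIs, 6 of 34 in the region (17.6%) and 37 of 233 elsewhere (15.9%) had a minor arm of at least 25%. Among those of at least 100 CPM the counts were 4 of 14 and 7 of 129, so the contrast appears only at that level. The even precursors were miR-136, miR-369 (5p share 41.8%, 40.9% and 43.1%), miR-434 (34.5%, 38.1% and 36.3%), miR-299a (72.2%, 71.8% and 74.1%) and, just under the 25%, miR-409 (24.1%, 22.3% and 24.96%). Outside the region, the nearest to equal among precursors of at least 100 CPM included miR-5627 and miR-501, whose shares are given above. The others were miR-126b (40.2%, 42.5% and 38.4%), miR-423 (64.5%, 64.0% and 59.7%), miR-151 (36.1%, 35.2% and 37.2%), miR-674 (33.9%, 36.4% and 34.7%) and miR-324 (67.9%, 71.2% and 68.4%).

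Most miRNAs varied little between the libraries. Among the 169 of at least 100 CPM the median CV was 4.98%, against 1.11% from counting error alone. The CV was under 5% in 85, under 10% in 149 and under 20% in 166, and it exceeded the counting error in 162. The CV was smaller for abundant miRNAs, with a median of 8.48% at 10 to 100 CPM (n = 198), 5.91% at 100 to 1000 CPM (n = 96), 4.39% at 1000 to 10000 CPM (n = 51) and 3.82% above (n = 22). Control 3 was the highest library for 88 of the 169, Control 2 for 49 and Control 1 for 32. Levels are shares of a total, and miR-143-3p held 24.4%, 25.5% and 23.0% of it in Controls 1, 2 and 3. Its part in these counts was not tested.

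The steadiest was miR-148b-3p, at 778, 786 and 781 CPM, with a CV of 0.520%, under its counting error of 1.10%. Then followed miR-7a-5p at 313, 311 and 307 CPM, miR-10b-3p, let-7c-5p, miR-30c-2-3p, miR-1843a-5p, miR-10a-5p at 5097, 5009 and 5148 CPM, miR-22-3p at 2924, 2875 and 2841 CPM, miR-497a-5p and let-7f-5p, all with a CV of at most 1.71%. At the other end, 3 miRNAs of at least 100 CPM had a CV of 20% or more. miR-501-5p gave 62.3, 138 and 151 CPM (CV 40.9%), miR-1198-5p gave 114, 201 and 198 CPM (28.7%), and miR-146b-5p gave 78.1, 121 and 103 CPM (21.5%). In all of them Control 1 was the lowest library.

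The next 7 in spread were mixed in direction, with miR-3963 also lowest in Control 1. For miR-146a-5p Control 1 was level with Control 3, and for miR-101c it was level with Control 2. miR-708-5p was highest in Control 3 (295, 260.5 and 381 CPM) and miR-328-3p highest in Control 1 (525, 364 and 417 CPM). The lymphocyte miRNA miR-150-5p was lowest in Control 2, at 776, 571 and 773 CPM. Its list neighbour miR-146a-5p, which damps innate immune signalling, was highest there, at 424, 545 and 425 CPM. miR-3963 gave 346, 459 and 500.5 CPM, let-7d-3p 189, 145 and 142 CPM, and miR-101c, a near copy of miR-101a, 1261, 1263 and 1615 CPM.

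**Figure D5:**
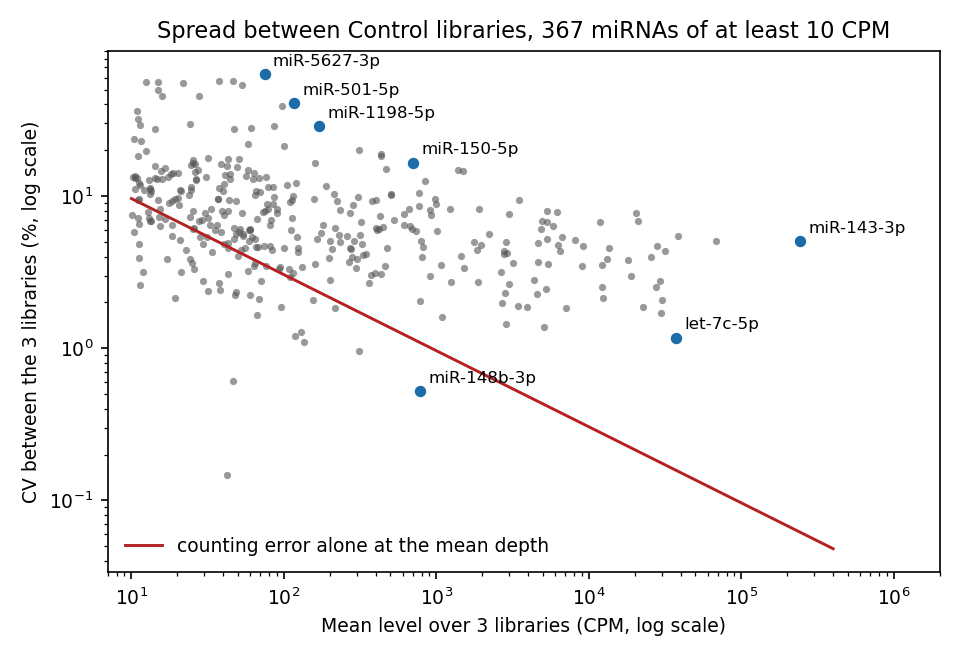
CV between the 3 Control libraries (percent, log axis) against mean level (CPM, log axis) for the 367 miRNAs of at least 10 CPM, 1 point each. The red line gives the CV from counting error alone at the mean depth, most points lie above it, and a group of miRNAs around 10 to 100 CPM stands at a CV of 40% to 63.0%.

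The largest spread among the 367 miRNAs of at least 10 CPM came from a set that was low in Control 1. The threshold of 40% that defines it was chosen after the values were seen. Of the 11 miRNAs with a CV of at least 40%, 10 were lowest in Control 1, and of the 263 with a CV under 10% Control 1 was lowest for 97. The 10 were miR-501-5p, miR-5627-3p, miR-3071-5p, miR-7004-5p, miR-6537-5p, miR-6236, miR-8092, miR-1893, miR-7015-5p and miR-6998-3p. Their mean in Controls 2 and 3 was 2.32 to 4.14 times that in Control 1, with a median of 3.56, while Controls 2 and 3 differed from each other by at most 1.42 times. Large ratios follow in part from the choice of these names by their CV and by Control 1 being lowest. miR-5627-3p, for example, had 266, 1067 and 1008 UMIs and miR-6236 had 87, 273 and 340. The eleventh, miR-206-3p, was highest in Control 3.

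Several read classes also set Control 1 apart. The share of reads in Controls 2 and 3 over that in Control 1 was 2.52 for ribosomal RNA, 1.71 for piRNA and 1.55 for other RNA. It was 1.72 for reads classed as too short. Opposite in direction were transfer RNA at 0.446 and reads that could not be mapped at 0.653, while miRNA as a class was at 0.997. The part of these classes in the low counts was not tested. By annotation, 5 of the 10 hairpins overlap an exon of a protein-coding gene (Dnajb9 on the opposite strand for Mir5627, Rtl1, Pou2f2, Zfp518a and Epc1). Of the rest, 4 lie in an intron, and Mir6236 overlaps no other annotated gene. The same share was not counted over all hairpins, and Mir21a and Mir126a outside the set also lie in coding exons. Exon overlap is therefore not shown to be a trait of the set. The common CV that edgeR fitted over the 719 miRNAs with at least 10 UMIs in each library was 13.5%. It was 8.00% without Control 1, 15.3% without Control 2 and 17.3% without Control 3, where the filter left 731 to 791 miRNAs.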

How the data were processed

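The deposited tables hold whole-number counts of UMIs and of reads per miRNA and counts of reads per RNA class, not normalized, per the file headers. The mm10 build, STAR 2.6, Trim Galore, FastQC 0.11.7 and DESeq2 are named in the submitters' processing notes with no role. The labels name no counting tool and do not say how reads were collapsed and assigned. UMI counts were divided by the miRNA total of the library (Python 3.11.15, pandas 2.3.3). Values are mean ± SD over 3 libraries, with no test between groups. Common dispersion came from edgeR 4.0.16 (R 4.3.3) with TMM scaling, tested on simulated data. Counting error covers sampling alone, and the floor is 3 UMIs. UMI counts are not corrected for how well each sequence is ligated, so levels of different miRNAs are counts of the distinct tags captured. Seeds (bases 2 to 8) came from RefSeq (GRCm38.p6, 1097 names matched) and positions from GENCODE M21 (mm10, 1230 names). Arms of names the table joins were joined.

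The libraries, miRNA lists and rules were chosen with earlier results of these data known. Named miRNAs were the 20 most abundant, 12 leading seed groups and 15 most abundant precursors. Of precursors of at least 100 CPM, the 12 nearest to equal arms were named. Also named were all that changed leading arm, the 10 highest and 10 lowest in CV, 8 leading clusters and leading list members. The set low in Control 1, the Meg3 region and the pairs on opposite strands were added after values were seen.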

Additional observations from a re-analysis of the deposited data

How the results depend on the processing

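The libraries support a description only, and with 3 of them an SD is itself imprecise. No paired analysis was possible because a single group was described. Counting reads in place of UMIs moved the share of miR-143-3p to 27.6%, of the 10 most abundant miRNAs to 58.7%, of the let-7 seed group to 14.03% and of the smooth muscle list to 30.8%. It moved the common CV to 13.8%. It also moved 21 of 61 single values, by 1 SD or more. Leaving miR-143-3p out of the total gave 45.8% for the top 10, 19.4% for let-7 and 4.38% for smooth muscle. With at least 10 UMIs over both arms, 212 of 392 precursors were led by 5p and the median minor share was 10.2%. That median was 1.58% with at least 1000 UMIs and 4.99% with 1 name per arm, so it depends on the depth required. It ran from 3.52% to 4.03% with each library left out in turn. The common CV was 10.9% with at least 100 UMIs in each library, 49.7% with no filter and 14.01% with library totals, and ran from 8.00% to 17.3% with each library left out. miRNA reads were 80.6% of the reads assigned to a class or mapped. Seed bases 2 to 7, grouping by name, summed UMIs and RLE scaling moved no share or common CV by that much. Leaving out 1 library cannot move a mean of 3 by 1 SD, so it says nothing about the stability of the shares.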
